A study of Mus musculus with 60 samples.

Results

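The actin cytoskeleton and smooth-muscle genes described here are 10 genes of mouse embryonic stem (ES) cells: Actb, Actg1, Vcl, Tpm1, Tpm2, Cnn1, Cnn2, Myl9, Tagln and Acta2. They were taken by symbol from 2 deposited RNA-seq tables, a first set with 24206 symbols and a time course with 24314, and all 10 were found in both. All 10 also passed the filter for testing, which asked for 1 FPKM or more in at least 2 libraries. FPKM is the number of fragments scaled by transcript length and by the fragments of the library. The 10 were chosen by measured values: they stood far above wild-type (WT) cells in the mutant lines of the time course, and several fell with etoposide in the first set. Those contrasts are therefore given as levels with no test. The tests are kept for contrasts between and within the mutant lines, between knockdown and WT cells, and between times in WT cells. These share libraries with the contrasts that chose the genes, and values of Actb and Tagln in the mutant lines were known beforehand. Their p-values are thus not independent of that choice.

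The study asked how ES cells with and without the long noncoding RNA Lnc956 respond to DNA damage by etoposide, a drug that traps topoisomerase II on broken DNA. The first set held 4 groups: Lnc956 knockdown cells given 10 uM etoposide, WT cells given the same dose, untreated Lnc956 knockdown cells and untreated WT cells. The time course held 14 groups: cells with Lnc956 knockout and P53 knockdown together (combined-loss cells), P53 knockdown cells and Lnc956 knockout cells, each taken before etoposide (0 h) and after 3 h, 6 h and 9 h of it, and WT cells after 6 h and 9 h. Its labels give 1 uM etoposide, except for 4 libraries labelled 10 uM, whose fellow replicates are labelled 1 uM. These were replicate 2 of Lnc956 knockout at 3 h, replicate 1 of Lnc956 knockout and of P53 knockdown at 6 h, and replicate 2 of combined-loss cells at 9 h. Peak lists of ChIP-seq covered KLF4 in 8 groups and P53 in 4 groups. The KLF4 groups were Lnc956 knockout cells rescued with Lnc956 lacking nucleotides 862 to 1253, knockout cells rescued with full-length Lnc956, knockout cells and WT cells, each with 10 uM etoposide (3 h by the labels) or untreated. The P53 groups were Lnc956 knockdown and WT cells, each with 10 uM etoposide or untreated, and the antibody was raised against P53 (S15). All cells were kept in DMEM/F12 with Knockout serum replacement and leukemia inhibitory factor. Every group had 2 libraries, and nothing in the labels says that these were separate cultures. The groups of a set were fitted together, so each p below reflects the spread between the 2 libraries of a group, pooled over that set. That spread may be technical. The sources used here do not give the number of clones behind each line.

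Actin exists as a soluble monomer and as a filament, and most of the genes described here encode filament subunits or proteins that bind filaments. Actb and Actg1 encode the cytoplasmic beta and gamma actins found in every cell. Acta2 encodes the alpha actin of vascular smooth muscle, which myofibroblasts and some embryonic cells also make. Tagln (transgelin), Cnn1 (calponin 1), Cnn2 (calponin 2), Tpm1 and Tpm2 (tropomyosins) lie along filaments, Myl9 is a regulatory light chain of smooth-muscle and nonmuscle myosin II, and Vcl (vinculin) ties filaments to adhesion sites. Many of these genes are classic targets of serum response factor (SRF), which binds a sequence called the CArG box and is switched on through the MRTF cofactors when the pool of free actin monomer falls. KLF4, a factor of naive ES cells, is also known as a repressor of smooth-muscle genes.

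The promoter sequences are shown because some of the 10 genes share a CArG box in them, and none of the motifs searched stood in every window. RefSeq promoter windows of build GRCm38.p6, searched over the 250 bases before the start, were found for 8 of the 10, all but Actb and Tagln. The CArG box, searched on both strands, stood in 4 of these 8 windows (Actg1, Cnn2, Myl9 and Vcl) and in 482 of all 32851 windows, or 1.47%. Each is printed 5′ to 3′ on the strand of its gene, up to the start of the gene body, with the CArG box in capitals.
Actg1, chr11:120348496-120348745, minus strand: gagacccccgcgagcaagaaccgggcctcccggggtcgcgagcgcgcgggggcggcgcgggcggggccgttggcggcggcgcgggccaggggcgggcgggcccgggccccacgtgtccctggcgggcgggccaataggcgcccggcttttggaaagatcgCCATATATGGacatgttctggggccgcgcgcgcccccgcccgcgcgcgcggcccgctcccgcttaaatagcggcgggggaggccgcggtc
Cnn2, chr10:79988350-79988599, plus strand: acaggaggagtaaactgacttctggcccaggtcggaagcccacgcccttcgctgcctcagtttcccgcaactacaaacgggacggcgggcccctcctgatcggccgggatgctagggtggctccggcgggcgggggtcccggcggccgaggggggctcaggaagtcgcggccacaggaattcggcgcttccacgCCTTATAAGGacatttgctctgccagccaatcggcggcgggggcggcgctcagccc
Myl9, chr2:156775214-156775407, plus strand: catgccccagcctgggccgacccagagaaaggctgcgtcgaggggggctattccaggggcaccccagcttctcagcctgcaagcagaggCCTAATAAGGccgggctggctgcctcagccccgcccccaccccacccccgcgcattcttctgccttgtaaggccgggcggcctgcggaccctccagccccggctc
Vcl, chr14:20929148-20929382, plus strand: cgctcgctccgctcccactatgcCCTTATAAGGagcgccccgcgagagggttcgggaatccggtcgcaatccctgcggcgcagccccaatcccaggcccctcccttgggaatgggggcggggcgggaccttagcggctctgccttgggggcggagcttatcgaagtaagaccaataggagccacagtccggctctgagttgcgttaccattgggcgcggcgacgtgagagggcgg
The Cnn2 and Vcl boxes share the letters CCTTATAAGG. A looser form with 1 C or G among its 6 central bases stood in 7.24% of all windows and in those of Acta2 and Myl9. The Acta2 window held it at 2 places, shown with 10 bases on each side because Acta2 had the largest difference from WT cells in the time course.
Acta2, chr19:34255438-34255467, minus strand: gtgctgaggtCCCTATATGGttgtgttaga
Acta2, chr19:34255388-34255417, minus strand: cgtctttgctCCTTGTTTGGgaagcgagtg
The letters GGGNGTGG, a core of KLF4 motifs, stood in the windows of Cnn1, Cnn2 and Myl9 and in 15.9% of all windows. The letters GGGCGG, a GC box, stood in 6 of the 8 windows (Actg1, Cnn2, Tpm1, Tpm2, Myl9 and Vcl) and in 32.7% of all. The 10-base unit of the P53 motif stood in 7.13% of all windows and in those of Actg1, Tpm1 and Tpm2, and in Actg1 it overlapped the CArG box by 2 bases. A match in a window is a description of letters and not a measured site.

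Libraries were checked against their labels before the results. Depth is unknown, since the tables hold no counts, and the number of genes at 1 FPKM or more was 11568 to 12031 per library in the first set and 11245 to 12858 in the time course. Trp53, the target of the P53 knockdown, had 52.5 to 66.2 FPKM in combined-loss libraries and 61.8 to 112 FPKM in P53 knockdown libraries, against 176 to 301 FPKM in Lnc956 knockout and 183 to 234 FPKM in WT libraries of the time course. Genes of ES cells were at high level in every group, with 10 of them summing to between 3307 and 7806 FPKM. Of 10 other genes of contractile smooth muscle, Myh11 stayed at 1.69 FPKM or less and Lmod1 at 3.51 FPKM or less in every library, and Pln at 0.131 FPKM or less. These were picked after values were seen, and others of the list were higher. The list summed to 101 to 203 FPKM per library in the first set and 52.5 to 208 FPKM in the time course. Its median gene stood at 0.591 to 3.60 FPKM over the groups. The label smooth-muscle genes names the genes here, and whether the libraries held smooth-muscle cells was not tested. Genes of fibroblasts, the usual feeder cells, were present. Their 20 genes summed to 479 to 622 FPKM in combined-loss libraries, 416 to 1224 FPKM in P53 knockdown libraries and 602 to 966 FPKM in Lnc956 knockout libraries, against 67.7 to 90.6 FPKM in WT libraries of the time course, where Postn was listed at 0. Fibroblasts also make most of the proteins described here, and fewer cells of a type and less RNA per cell cannot be told apart in bulk libraries. Y-linked genes, read to compare the libraries of a line, differed between its times. Their 4 genes summed to 53.8 to 54.1 FPKM in P53 knockdown cells at 0 h and 7.60 to 8.57 FPKM at 9 h, and to 0.140 to 0.282 FPKM in Lnc956 knockout cells at 0 h and 2.45 to 2.89 FPKM at 9 h. In combined-loss cells they summed to 4.40 to 4.84 FPKM at 0 h and 3.02 to 6.34 FPKM at 9 h, and in WT cells they were listed at 0. In the first set they summed to 40.5 to 44.8 FPKM in etoposide-treated and 3.79 to 4.15 FPKM in untreated knockdown cells, and to 36.7 to 39.1 FPKM in etoposide-treated and 4.17 to 4.36 FPKM in untreated WT cells. The P53 knockdown libraries at 0 h and 3 h also differed within a group, as with Srf at 19.5 and 42.9 FPKM at 0 h.

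In the time course, all 10 genes lay higher in both libraries of each mutant line than in both WT libraries, at 6 h and at 9 h. This is the contrast that chose them, and nothing is read from the count. Over all genes tested, 38.3% and 37.7% lay above WT in this way in combined-loss cells at 6 h and 9 h, 44.2% and 43.2% in P53 knockdown cells, and 35.1% and 38.7% in Lnc956 knockout cells. The differences ran from 1.04 (Actb in P53 knockdown cells at 9 h) to 7.63 (Acta2 in Lnc956 knockout cells at 9 h) on the log2(FPKM + 1) scale, which understates the change of genes at low level. The 10 genes together made up 0.645% to 0.797% of all FPKM in combined-loss libraries, 0.472% to 0.758% in P53 knockdown libraries and 0.556% to 1.03% in Lnc956 knockout libraries, against 0.147% to 0.194% in WT libraries. WT libraries of the first set, scaled apart, had 23.9 to 54.6 FPKM of Acta2 and 72.4 to 132 FPKM of Tagln. Those of the time course had at most 0.0248 and 1.98 FPKM, with the lowest fibroblast sums and Y-linked genes at 0. An effect of the mutations and another difference between the libraries therefore cannot be told apart in the gap to WT cells.

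**Figure D1:**
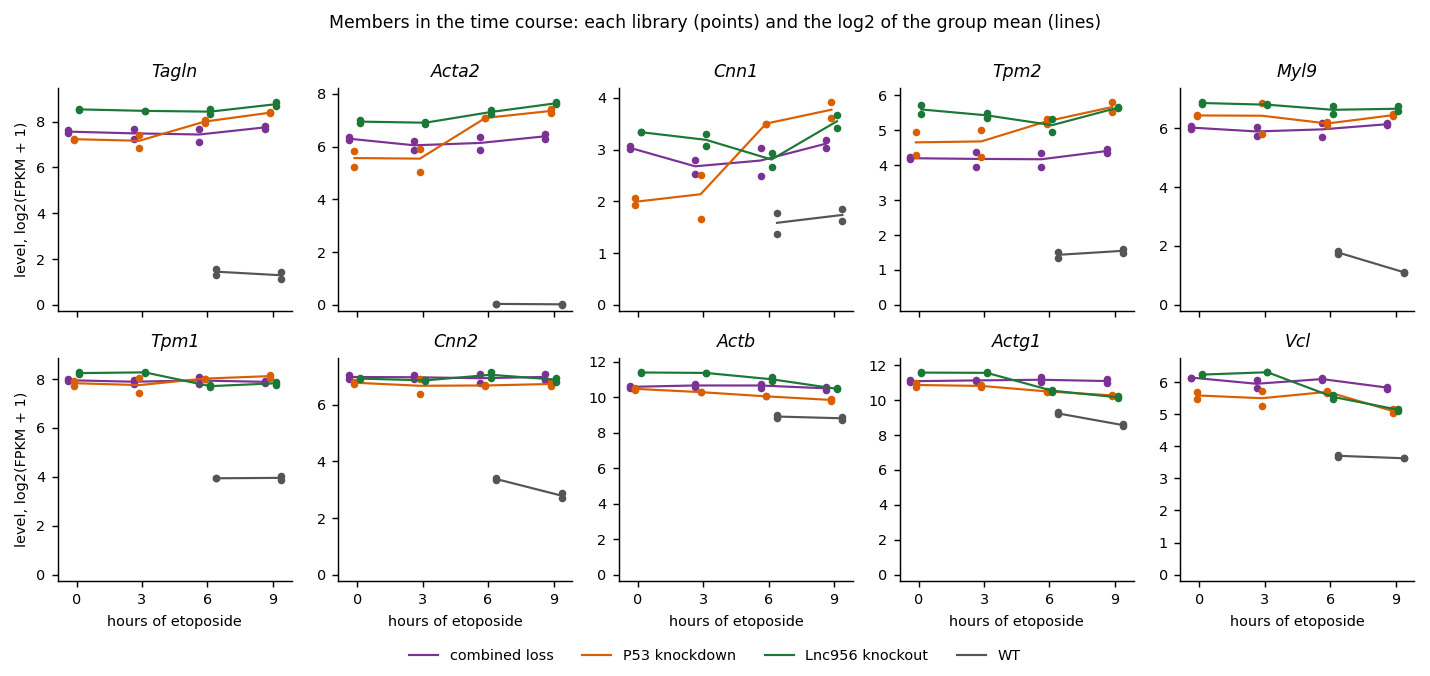
Level of each of the 10 genes, as log2(FPKM + 1), against hours of etoposide in combined-loss, P53 knockdown, Lnc956 knockout and WT cells; points are single libraries (n = 2 a group) and lines join the log2 of the group mean. At 6 h and 9 h the WT libraries lie lowest for every gene, Acta2 and Cnn1 climb in P53 knockdown cells between 3 h and 6 h, and Actg1 and Vcl drop in Lnc956 knockout cells over the same hours.

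Actb and Actg1, the cytoplasmic actins, fell from 0 h to 9 h of etoposide in Lnc956 knockout and P53 knockdown cells, whose Y-linked sums also differed between these times. They did not pass the test in combined-loss cells. Their coding sequences are nearly the same, and the sources used here do not give how reads that fit both were counted, so the split between them is uncertain. In combined-loss cells Actb had 1601 and 1485 FPKM at 0 h, 1550.0 and 1711 FPKM at 3 h, 1497 and 1760.2 FPKM at 6 h, and 1357 and 1558 FPKM at 9 h. In P53 knockdown cells it had 1378 and 1480.5 FPKM at 0 h, 1268 and 1244 FPKM at 3 h, 1062 and 1068 FPKM at 6 h, and 952 and 898 FPKM at 9 h. In Lnc956 knockout cells it had 2750.1 and 2669.7 FPKM at 0 h, 2638 and 2685 FPKM at 3 h, 2239.9 and 1919 FPKM at 6 h, and 1395 and 1466 FPKM at 9 h. The knockout libraries thus stood above all others at 0 h and 3 h and among the combined-loss libraries at 9 h. WT cells had 508 and 458 FPKM at 6 h and 478 and 424 FPKM at 9 h. From 0 h to 9 h the log2 difference of Actb was -0.08 ± 0.11 in combined-loss cells (SE; adjusted p = 0.767), -0.63 ± 0.11 in P53 knockdown cells (adjusted p = 8.24e-05) and -0.92 ± 0.11 in Lnc956 knockout cells (adjusted p = 7.59e-07), by limma with Benjamini-Hochberg adjustment over all 14223 genes tested, as for every adjusted p of the time course below.

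Actg1 had a steeper drop than Actb in the knockout. In combined-loss cells it had 2265 and 2083 FPKM at 0 h, 2165 and 2327 FPKM at 3 h, 2081 and 2531 FPKM at 6 h, and 1997 and 2384 FPKM at 9 h, with all groups overlapping. In P53 knockdown cells it had 1704 and 2042 FPKM at 0 h, 1759 and 1851 FPKM at 3 h, 1434 and 1470.0 FPKM at 6 h, and 1280.0 and 1194 FPKM at 9 h. In Lnc956 knockout cells it had 3125 and 3004 FPKM at 0 h, 3089.6 and 2982 FPKM at 3 h, 1561 and 1425 FPKM at 6 h, and 1106 and 1189 FPKM at 9 h. The knockout thus held the highest Actg1 levels at 0 h and 3 h and the lowest of the mutant lines at 9 h. The log2 difference from 0 h to 9 h was -1.42 ± 0.12 in Lnc956 knockout cells (adjusted p = 7.23e-09) and -0.59 ± 0.12 in P53 knockdown cells (adjusted p = 0.000304), against 0.01 ± 0.12 in combined-loss cells (adjusted p = 0.995). WT cells had 394 and 364 FPKM at 9 h and 630.0 and 583 FPKM at 6 h, a log2 difference of -0.68 ± 0.12 (adjusted p = 0.00111). This WT contrast passed for 12.1% of all genes tested, 7.61% with higher and 4.48% with lower levels at 9 h.

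Vcl, which links filaments to integrin adhesions, fell in the same lines as Actg1. It had 69.6 and 69.5 FPKM at 0 h and 54.4 and 57.1 FPKM at 9 h in combined-loss cells, 43.2 and 50.7 FPKM at 0 h and 31.6 and 34.8 FPKM at 9 h in P53 knockdown cells, and 74.6 and 73.9 FPKM at 0 h and 35.0 and 33.4 FPKM at 9 h in Lnc956 knockout cells. WT cells had 12.3 and 11.7 FPKM at 6 h and 11.3 and 11.4 FPKM at 9 h. From 0 h to 9 h Vcl fell by 1.10 ± 0.12 on the log2 scale in Lnc956 knockout cells (adjusted p = 1.91e-07) and by 0.48 ± 0.12 in P53 knockdown cells (adjusted p = 0.00166). In combined-loss cells the difference was -0.31 ± 0.12 with an adjusted p of 0.147, and its 9 h libraries lay below its 0 h libraries. The gene body of Vcl (chr14:20929383-21033676) overlaps those of Ap3m1, Gm30274 and Gm52168. Those of Tagln, Tpm2, Actb and Actg1 overlap Pcsk7, Car9, Gm38733 and Mir6935 in turn. The sources used here do not give the strand used in counting, so the levels of these 5 genes may include reads of their neighbours.

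Tagln, Acta2 and Cnn1, whose products mark differentiated smooth muscle, rose from 0 h to 9 h of etoposide in P53 knockdown cells. The Y-linked sum of these cells was 52.0 to 54.9 FPKM at 3 h and 7.07 to 7.80 FPKM at 6 h. Hours of etoposide and a difference between the libraries therefore cannot be told apart there. Tagln had 152 and 148 FPKM at 0 h, 169 and 116 FPKM at 3 h, 243 and 269 FPKM at 6 h, and 341 and 329.7 FPKM at 9 h in P53 knockdown cells. In combined-loss cells it had 197 and 181 FPKM at 0 h, 151 and 207 FPKM at 3 h, 139 and 206 FPKM at 6 h, and 207 and 222 FPKM at 9 h. In Lnc956 knockout cells it had 381 and 361 FPKM at 0 h, 357 and 352 FPKM at 3 h, 374 and 318 FPKM at 6 h, and 407 and 461 FPKM at 9 h, so that every knockout library lay above every combined-loss library. WT cells had 1.98 and 1.48 FPKM at 6 h and 1.72 and 1.17 FPKM at 9 h. The log2 difference from 0 h to 9 h was 1.16 ± 0.18 in P53 knockdown cells (adjusted p = 2.43e-05), 0.22 ± 0.18 in Lnc956 knockout cells (adjusted p = 0.294) and 0.18 ± 0.18 in combined-loss cells (adjusted p = 0.664).

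Acta2, the smooth-muscle actin, also rose in P53 knockdown cells. It had 56.5 and 36.2 FPKM at 0 h, 59.9 and 31.5 FPKM at 3 h, 135 and 135 FPKM at 6 h, and 171 and 154 FPKM at 9 h there. In combined-loss cells it had 80.5 and 75.2 FPKM at 0 h, 57.0 and 73.6 FPKM at 3 h, 57.1 and 81.9 FPKM at 6 h, and 77.9 and 88.2 FPKM at 9 h. In Lnc956 knockout cells it had 128 and 117 FPKM at 0 h, 123 and 116 FPKM at 3 h, 167 and 149 FPKM at 6 h, and 194 and 205 FPKM at 9 h. The step in P53 knockdown cells lay between 3 h and 6 h, and the 6 h and 9 h libraries did not overlap the earlier ones. WT libraries were at 0.0246 and 0.0228 FPKM at 6 h and at 0 and 0.0248 FPKM at 9 h. The log2 difference from 0 h to 9 h was 1.82 ± 0.22 in P53 knockdown cells (adjusted p = 1.14e-06) and 0.70 ± 0.22 in Lnc956 knockout cells (adjusted p = 0.00976), against 0.09 ± 0.22 in combined-loss cells (adjusted p = 0.898). In P53 knockdown cells the call held in all 13 alternatives with a difference of 1.51 to 2.13, although the 0 h replicates differed. In the knockout it was lost in 3 of 13, namely with a common median level and without replicate 2 of the 0 h or of the 9 h group, with differences down to 0.22 and an adjusted p up to 0.367.

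Cnn1 had 2.79 and 3.16 FPKM at 0 h, 4.66 and 2.14 FPKM at 3 h, 10.3 and 10.3 FPKM at 6 h, and 14.1 and 11.2 FPKM at 9 h in P53 knockdown cells. In combined-loss cells it had 7.03 and 7.36 FPKM at 0 h and 7.21 and 8.11 FPKM at 9 h, and in Lnc956 knockout cells 9.11 and 9.10 FPKM at 0 h and 9.67 and 11.7 FPKM at 9 h. At 0 h it was thus lowest in P53 knockdown cells, and at 9 h their libraries overlapped those of the knockout. In P53 knockdown cells Cnn1 rose by 1.77 ± 0.22 on the log2 scale (adjusted p = 1.87e-06). WT cells had 2.41 and 1.59 FPKM at 6 h and 2.60 and 2.06 FPKM at 9 h, levels that the P53 knockdown library of replicate 2 at 3 h also had.

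Of the tropomyosins, Tpm2 passed in P53 knockdown cells and Tpm1 in the knockout, and the difference between them was not tested. Tpm2, which is enriched in muscle, had 17.7 and 17.1 FPKM at 0 h and 19.5 and 21.0 FPKM at 9 h in combined-loss cells. It had 29.8 and 18.6 FPKM at 0 h, 31.5 and 17.9 FPKM at 3 h, 35.6 and 39.0 FPKM at 6 h, and 55.0 and 44.8 FPKM at 9 h in P53 knockdown cells, and 51.5 and 43.5 FPKM at 0 h and 48.7 and 49.6 FPKM at 9 h in Lnc956 knockout cells. Only P53 knockdown cells passed the test from 0 h to 9 h, with a rise of 1.04 ± 0.22 (adjusted p = 0.000506), against 0.05 ± 0.22 in the knockout (adjusted p = 0.85) and 0.21 ± 0.22 in combined-loss cells (adjusted p = 0.702). Tpm1, the more widely expressed of the pair, had 254 and 239 FPKM at 0 h and 227 and 244 FPKM at 9 h in combined-loss cells, 241 and 212 FPKM at 0 h and 289 and 266 FPKM at 9 h in P53 knockdown cells, and 308 and 296 FPKM at 0 h and 218 and 235 FPKM at 9 h in Lnc956 knockout cells. Tpm1 fell in the knockout by 0.42 ± 0.14 (adjusted p = 0.0116), and this call was lost in 3 of 13 alternatives, with quantile scaling and without replicate 1 of the 0 h or of the 9 h group, with differences from -0.89 to -0.09 and an adjusted p up to 0.609. WT cells had 1.54 and 1.86 FPKM of Tpm2 and 14.5 and 14.3 FPKM of Tpm1 at 6 h.

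Cnn2 and Myl9 passed no test from 0 h to 9 h in the mutant lines. Cnn2, the calponin of nonmuscle cells, ranged from 109 to 135 FPKM in combined-loss cells (median 126 FPKM over 8 libraries), from 83.5 to 119 FPKM in P53 knockdown cells (median 106 FPKM) and from 111 to 142 FPKM in Lnc956 knockout cells (median 121 FPKM), so the lines overlapped. In WT cells Cnn2 had 6.37 and 5.47 FPKM at 9 h and 9.64 and 9.17 FPKM at 6 h, a fall of 0.59 ± 0.13 on the log2 scale (adjusted p = 0.00721; adjusted p up to 0.091 without WT replicate 1 at 6 h or replicate 2 at 9 h). Myl9 ranged from 50.5 to 72.0 FPKM in combined-loss cells, from 54.4 to 115 FPKM in P53 knockdown cells and from 88.4 to 117 FPKM in Lnc956 knockout cells, so that the combined-loss and knockout ranges did not meet. The lowest and highest P53 knockdown values of Myl9 were both at 3 h, 54.4 FPKM in replicate 2 and 115 FPKM in replicate 1. Myl9 in WT cells had 1.12 and 1.19 FPKM at 9 h and 2.31 and 2.53 FPKM at 6 h, a difference of -0.67 ± 0.22 (adjusted p = 0.049) that was lost in 8 of 13 alternatives, among them each omission of 1 WT library, with an adjusted p up to 0.209.

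Between 0 h and 9 h of etoposide, 12 of the 30 tests over 10 genes and 3 lines passed, 5 with a rise and 7 with a fall. With quantile scaling the split was 6 to 6, and with a common median 4 to 9. They were 7 in P53 knockdown cells, where 60.2% of all genes tested passed, 5 in Lnc956 knockout cells, where 63.6% passed, and 0 in combined-loss cells, where 5.62% passed. By direction, 39.3% of all genes rose and 20.9% fell in P53 knockdown cells, 43.2% rose and 20.4% fell in Lnc956 knockout cells, and 2.43% rose and 3.2% fell in combined-loss cells. In limma 1 gene, Vcl, had an unadjusted p under 0.05 in combined-loss cells, and no gene passed there in any of 13 alternatives. Fold changes are relative to all genes: the median log2 difference over all genes tested was 0.06 in combined-loss cells, 0.20 in P53 knockdown cells and 0.27 in Lnc956 knockout cells, and setting each library to the same median moved these by -0.01, -0.14 and -0.48. The 7 calls in P53 knockdown cells and those of Actb, Actg1 and Vcl in the knockout held in all 13 alternatives. Fibroblast genes moved beside the rise in P53 knockdown cells: 15 of 20 rose and 0 fell, and their sum was 416 to 769 FPKM at 0 h and 1184 to 1224 FPKM at 9 h. In the knockout 3 rose and 7 fell, and their sum was 772 to 775 FPKM at 0 h and 947 to 966 FPKM at 9 h. In combined-loss cells 0 rose and 0 fell, with 588 to 622 FPKM at 0 h and 615 to 617 FPKM at 9 h. Of 6 trophectoderm genes 0 rose and 1 fell in combined-loss cells, 5 rose and 1 fell in P53 knockdown cells, and 4 rose and 0 fell in the knockout. Of 10 ES cell genes 0 rose and 5 fell in combined-loss cells, 2 rose and 7 fell in P53 knockdown cells, and 0 rose and 9 fell in the knockout. The part of these genes, and of the Y-linked shift between the 3 h and 6 h libraries of P53 knockdown and knockout cells, in the results of the 10 genes was not tested. The steps of time were tested after the values had been seen, and their calls were not recomputed in any alternative. From 0 h to 3 h none of the 10 passed in limma in any line, and none had an unadjusted p under 0.05, while 0.45% of all genes passed in the knockout, 0% in combined-loss cells and 5.18% in P53 knockdown cells. Between 6 h and 9 h, times at which the Y-linked sums overlapped or lay close, 4 genes passed in the knockout, where 29.2% of all did. These were Actb (-0.54 ± 0.11, adjusted p = 0.0013), Actg1 (-0.38 ± 0.12, adjusted p = 0.0227), Vcl (-0.40 ± 0.12, adjusted p = 0.0158) and Cnn1 (0.74 ± 0.22, adjusted p = 0.0182). Over the same hours Vcl alone passed in P53 knockdown cells (-0.60 ± 0.12, adjusted p = 0.00539; 8.15% of all genes), and none did in combined-loss cells (11.6% of all genes; 1 gene, Vcl, at an unadjusted p under 0.05).

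**Figure D2:**
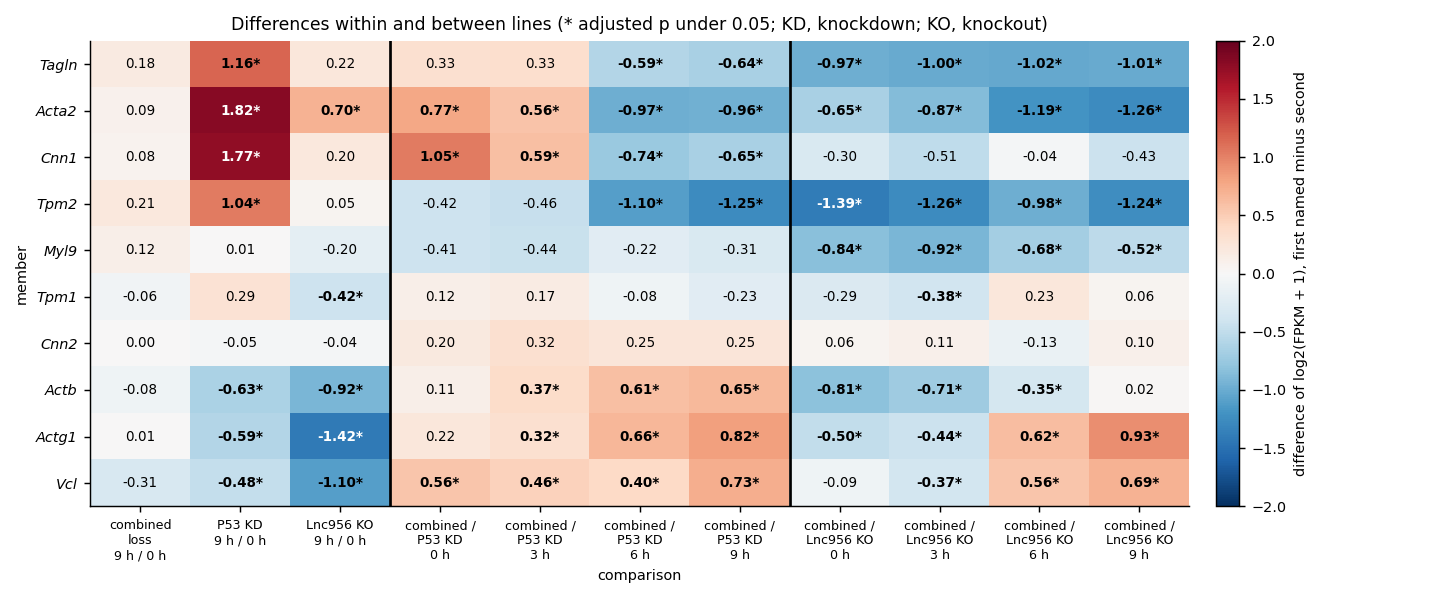
Differences of log2(FPKM + 1) for the 10 genes, with red for higher and blue for lower in the group named first: 9 h against 0 h in each mutant line, then combined-loss against P53 knockdown cells and against Lnc956 knockout cells at 4 times (n = 2 libraries a group; an asterisk marks an adjusted p under 0.05 in limma). The 9 h against 0 h column of combined-loss cells shows no asterisk, P53 knockdown cells show 1.82 for Acta2 and 1.77 for Cnn1, and Actg1 turns from -0.50 at 0 h to 0.93 at 9 h between combined-loss and knockout cells.

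Differences between the lines in the 0 h to 9 h response were tested for the 10 genes. Of 30 such differences, 16 passed, 12 of them positive and 4 negative (8 and 6 with quantile scaling, 16 and 3 with a common median). For combined-loss minus Lnc956 knockout 3 of 10 passed, beside 47.4% of all genes (15.5% positive, 31.9% negative). For combined-loss minus P53 knockdown 6 of 10 passed, beside 34.2% of all genes (11.8% and 22.4%). For P53 knockdown minus Lnc956 knockout 7 of 10 passed, beside 46.4% of all genes (20.7% and 25.7%). Nothing is read from these counts. Against the knockout, the response of combined-loss cells was higher for Actg1 (1.42 ± 0.17, adjusted p = 2.75e-06), Actb (0.84 ± 0.16, adjusted p = 0.000289) and Vcl (0.78 ± 0.17, adjusted p = 0.000912). Against P53 knockdown cells, the response of combined-loss cells was lower for Acta2 (-1.73 ± 0.31, adjusted p = 0.000366), Cnn1 (-1.70 ± 0.32, adjusted p = 0.000499), Tagln (-0.97 ± 0.26, adjusted p = 0.00699) and Tpm2 (-0.84 ± 0.31, adjusted p = 0.0458), and higher for Actb (0.54 ± 0.16) and Actg1 (0.60 ± 0.17). The Tpm2 call was lost in 12 of 17 alternatives, among them without replicate 2 of P53 knockdown at 0 h, with an adjusted p up to 0.237, and those of Actb and Actg1 in 3 and 4 of 17, among them without combined-loss replicate 2 at 9 h, with an adjusted p up to 0.0838 and 0.0931. P53 knockdown cells responded higher than knockout cells for 7 genes, among them Cnn1 (1.57 ± 0.32, adjusted p = 0.00058), Acta2 (1.12 ± 0.31, adjusted p = 0.00658), Tpm2 (0.99 ± 0.31, adjusted p = 0.0148), Tagln (0.93 ± 0.26, adjusted p = 0.00623) and Actg1 (0.82 ± 0.17, adjusted p = 0.000658). The Tpm2 call was lost in 3 of 17, without knockout replicate 1 at 0 h or P53 knockdown replicate 2 at 0 h or replicate 1 at 9 h, with an adjusted p up to 0.096. These 3 sets of differences share their libraries and are not independent of each other.

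At matched times, combined-loss cells and P53 knockdown cells differed in opposite ways for Actb, Actg1 and Vcl and for Tagln, Acta2, Cnn1 and Tpm2 at 9 h. Of 40 tests over 10 genes and 4 times, 22 passed, 14 with higher and 8 with lower levels in combined-loss cells (10 and 9 with quantile scaling, 18 and 4 with a common median), and the share of all genes that passed was 44.9% at 0 h, 47.6% at 3 h, 37.2% at 6 h and 47.9% at 9 h. Of all genes, 21.2%, 21.3%, 14.7% and 14.9% were higher at these times and 23.7%, 26.4%, 22.5% and 33% were lower. At 9 h Actg1 (0.82 ± 0.12, adjusted p = 2.08e-05), Vcl (0.73 ± 0.12, adjusted p = 6.17e-05) and Actb (0.65 ± 0.11, adjusted p = 9.9e-05) were higher in combined-loss cells. At the same time Tpm2 (-1.25 ± 0.22, adjusted p = 0.000149), Acta2 (-0.96 ± 0.22, adjusted p = 0.00148), Tagln (-0.64 ± 0.18, adjusted p = 0.00694) and Cnn1 (-0.65 ± 0.22, adjusted p = 0.0225) were lower. At 0 h the sign of Acta2 and Cnn1 was the other one, and Cnn1 (1.05 ± 0.22, adjusted p = 0.000904), Acta2 (0.77 ± 0.22, adjusted p = 0.00828) and Vcl (0.56 ± 0.12, adjusted p = 0.000789) were all higher in combined-loss cells. The Acta2 call at 0 h was lost without P53 knockdown replicate 2 or combined-loss replicate 1, with an adjusted p up to 0.147. All 5 calls at 3 h (Actb, Actg1, Acta2, Cnn1 and Vcl) were lost without 1 or more of the 3 h libraries. Tagln at 9 h was lost with a common median (adjusted p = 0.0896), and Cnn1 at 9 h was lost in 7 of 13, among them without P53 knockdown replicate 1 or either combined-loss library, with an adjusted p up to 0.171. Fibroblast genes at 9 h were lower in combined-loss cells for 16 of 20 and higher for 0, and at 0 h they were higher for 4 and lower for 4. Trophectoderm genes were higher for 5 of 6 and lower for 0 at 0 h, and higher for 1 and lower for 2 at 9 h. ES cell genes were higher for 4 and lower for 2 of 10 at 0 h, and higher for 6 and lower for 1 at 9 h. The part of these lists was not tested.

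Against Lnc956 knockout cells, combined-loss cells had lower Tagln, Acta2, Tpm2 and Myl9 at every time, while Actg1 changed sides. Of 40 tests 27 passed, 4 with higher and 23 with lower levels in combined-loss cells, beside 55.4% of all genes at 0 h, 54.3% at 3 h, 47.5% at 6 h and 53% at 9 h. Of all genes, 31.4%, 30.1%, 24.7% and 20.5% were higher at these times and 23.9%, 24.1%, 22.8% and 32.5% were lower. Setting each library to the same median moved the median log2 difference over all genes by -0.26 at 0 h and 0.21 at 9 h. At 9 h the log2 differences were -1.01 ± 0.18 for Tagln (adjusted p = 0.000116), -1.26 ± 0.22 for Acta2 (adjusted p = 9.08e-05), -1.24 ± 0.22 for Tpm2 (adjusted p = 0.000109) and -0.52 ± 0.22 for Myl9 (adjusted p = 0.0477). The Myl9 call at 9 h was lost in 10 of 13 alternatives, including each omission of 1 library, with an adjusted p up to 0.219. That of Myl9 at 6 h was lost in 4 of 13, among them without knockout replicate 1 or combined-loss replicate 1, with an adjusted p up to 0.169. That of Acta2 at 0 h was lost in 4 of 13, among them without knockout replicate 1 or combined-loss replicate 2, with an adjusted p up to 0.0947. Actg1 was lower in combined-loss cells at 0 h (-0.50 ± 0.12, adjusted p = 0.00161) and 3 h (-0.44 ± 0.12, adjusted p = 0.00459), and higher at 6 h (0.62 ± 0.12, adjusted p = 0.000283) and 9 h (0.93 ± 0.12, adjusted p = 2.59e-06). With only the compared groups in the fit, the Actg1 calls at 3 h and 6 h were lost, with an adjusted p of 0.109 and 0.144. Vcl was higher at 6 h (0.56 ± 0.12, adjusted p = 0.000714) and 9 h (0.69 ± 0.12, adjusted p = 6.95e-05). Actb was lower at 0 h (-0.81 ± 0.11, adjusted p = 4.8e-06) and did not pass at 9 h (0.02 ± 0.11, adjusted p = 0.874). The calls of Actb at 6 h (-0.35) and of Tpm1 (-0.38) and Vcl (-0.37) at 3 h were each lost in 5 of 13. Quantile scaling was among these 5 for each. Cnn1 and Cnn2 passed at no time. The combined-loss libraries enter both this comparison and that with P53 knockdown cells, so the 2 are not independent. Other lists moved beside these genes. Fibroblast genes were higher for 3 and lower for 6 of 20 in combined-loss cells at both 0 h and 9 h. The other smooth-muscle contractile genes (8 tested) were higher in combined-loss cells for 4, 4, 2 and 2 at 0 h, 3 h, 6 h and 9 h, and lower for 0, 0, 0 and 1. Trophectoderm genes (6 tested) were higher for 5, 6, 6 and 4 and lower for 0 at each time, with a median log2 difference of 0.94 at 9 h. Their summed level at 0 h was 249.7 to 288 FPKM in combined-loss cells and 30.7 to 32.9 FPKM in knockout cells. ES cell genes (10 tested) were higher for 2 and lower for 6 at 0 h, and higher for 4 and lower for 4 at 9 h. The part of these lists was not tested.

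The first set is another table, scaled apart from the time course, and levels cannot be compared across the tables by a test. Tagln had 74.8 and 72.4 FPKM in etoposide-treated and 131.8 and 129.2 FPKM in untreated WT cells. Acta2 had 23.9 and 24.1 FPKM in etoposide-treated and 54.6 and 53.9 FPKM in untreated WT cells. Etoposide against untreated cells is a contrast that chose the genes and is given without a test. In WT cells 8 of the 10 lay lower in both treated libraries, at a background of 43.6% of all genes, and Actb and Actg1 lay higher, at a background of 44.6%. In Lnc956 knockdown cells 7 lay lower (45.2% of all genes) and 3, with Cnn2 added, lay higher (39.2%). The differences in WT cells ran from -1.19 for Tpm2 to 0.68 for Actb. All 20 fibroblast genes lay lower in both treated libraries of either line, with sums of 260.4 to 263 FPKM in etoposide-treated and 1025 to 1032 FPKM in untreated knockdown cells, and 281 to 285 FPKM in etoposide-treated and 1054 to 1064 FPKM in untreated WT cells. Their part was not tested.

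**Figure D3:**
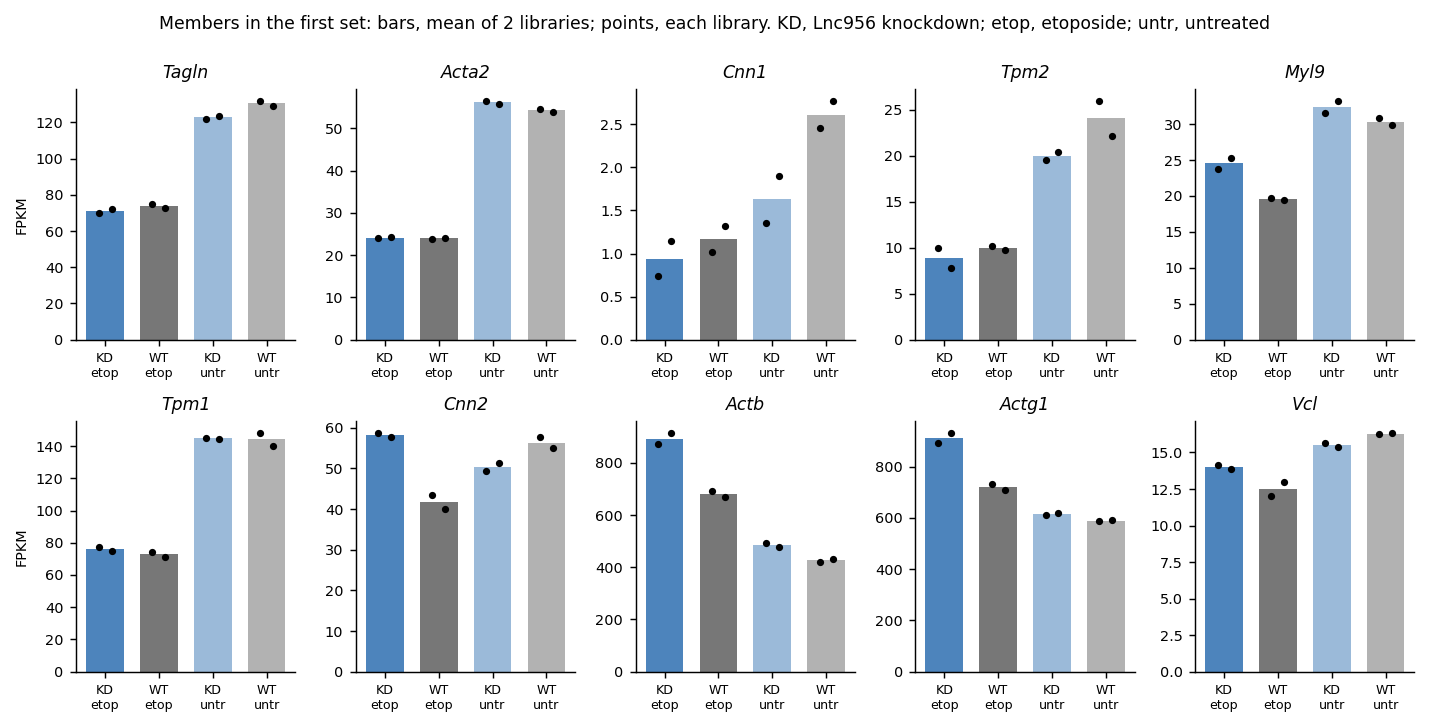
FPKM of the 10 genes in the first set, in Lnc956 knockdown (KD) and WT cells with etoposide and in Lnc956 knockdown and WT cells untreated; bars are means of 2 libraries, from 0, and points are the libraries. Acta2 bars of knockdown and WT cells are level within each treatment, whereas Cnn2 with etoposide stands at 58.7 and 57.6 FPKM in knockdown cells and 43.5 and 40.1 FPKM in WT cells.

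Under etoposide, Lnc956 knockdown cells had more of both cytoplasmic actins, Cnn2 and Myl9 than WT cells. Actb had 872 and 914 FPKM in knockdown cells and 693 and 671 FPKM in WT cells, a log2 difference of 0.39 ± 0.05 (adjusted p = 0.000212, limma over 12733 genes, as for the first set below). Actg1 had 893 and 931 FPKM in knockdown cells and 734 and 709.7 FPKM in WT cells (0.34 ± 0.05, adjusted p = 0.000382). Cnn2 had 58.7 and 57.6 FPKM in knockdown cells and 43.5 and 40.1 FPKM in WT cells (0.47 ± 0.05, adjusted p = 0.000128). Myl9 had 23.7 and 25.3 FPKM in knockdown cells and 19.7 and 19.5 FPKM in WT cells (0.31 ± 0.05, adjusted p = 0.00131). Vcl had 14.1 and 13.9 FPKM in knockdown cells and 12.03 and 13.0 FPKM in WT cells (0.15 ± 0.05, adjusted p = 0.0472), a call lost in 7 of 12 alternatives, including the omission of WT replicate 1 or of either knockdown library, with an adjusted p up to 0.235. Thus 5 of the 10 passed, all with higher levels in knockdown cells, where 45.6% of all genes passed and 22.7% did so with higher levels. Tagln, Acta2, Tpm1, Tpm2 and Cnn1 did not pass. Acta2 had 24.1 and 24.2 FPKM in knockdown cells and 23.9 and 24.1 FPKM in WT cells. The ranges of the fibroblast sums were 260.4 to 263 FPKM in knockdown and 281 to 285 FPKM in WT cells, with 1 of 20 genes higher and 7 lower.

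Without etoposide only Actb and Cnn1 passed between knockdown and WT cells, where 23.8% of all genes did, 15.3% with higher and 8.48% with lower levels in knockdown cells. Actb had 493 and 477 FPKM in knockdown cells and 420.4 and 433 FPKM in WT cells (0.18 ± 0.05, adjusted p = 0.024). Cnn1 had 1.36 and 1.91 FPKM in knockdown cells and 2.46 and 2.77 FPKM in WT cells (-0.46 ± 0.14, adjusted p = 0.0454). Actb was lost when either library of either group was left out, and Cnn1 when either WT library or replicate 1 of the knockdown was, with an adjusted p up to 0.157 for Actb and 0.259 for Cnn1. The etoposide responses of the lines differed for 4 genes, all higher in knockdown cells, beside 33.1% of all genes and 13.6% with a higher response. In the same difference 8 of 10 ES cell genes were higher and 0 lower (median 0.54), and 1 of 7 smooth-muscle contractile genes was higher and 4 were lower (median -0.49). Their part was not tested. Cnn2 (0.63 ± 0.07, adjusted p = 0.00042) and Actg1 (0.27 ± 0.06, adjusted p = 0.0119) held in all 16 alternatives. Actb (0.20 ± 0.07, adjusted p = 0.0454) and Myl9 (0.22 ± 0.07, adjusted p = 0.0492) were lost in 11 and 10 of 16, including omissions of single libraries of all 4 groups, with an adjusted p up to 0.134 and 0.148.

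Other genes of the actin system were read from a list of 40, of which 39 were tested in each set. From 0 h to 9 h, 0 of these rose and 6 fell in combined-loss cells (median log2 difference -0.01, against 0.06 over all genes), 6 rose and 9 fell in P53 knockdown cells (-0.07, against 0.20), and 6 rose and 17 fell in Lnc956 knockout cells (-0.19, against 0.27). At 9 h, combined-loss cells were higher than P53 knockdown cells for 12 and lower for 7, and higher than knockout cells for 12 and lower for 8. Between etoposide-treated knockdown and WT cells of the first set 18 were higher and 2 lower (median 0.14, against -0.01 over all genes). The 4 at highest level were Tmsb10, Tmsb4x, Pfn1 and Cfl1. Pfn1 (profilin 1), which feeds monomers to growing filaments, had 1714 and 1606 FPKM in etoposide-treated knockdown cells and 1301 and 1182 FPKM in etoposide-treated WT cells (0.42 ± 0.06, adjusted p = 0.000792). Pfn1 also fell by 0.57 ± 0.13 from 0 h to 9 h in Lnc956 knockout cells (adjusted p = 0.000924). Tmsb10 (thymosin beta 10), which holds monomers back, fell by 0.75 ± 0.16 in the knockout over the same time (adjusted p = 0.000386). Cfl1 (cofilin 1), which severs filaments, rose by 0.41 ± 0.12 in P53 knockdown cells (adjusted p = 0.00513). Tmsb4x (thymosin beta 4) was lower in combined-loss cells than in P53 knockdown cells (-0.50 ± 0.13, adjusted p = 0.00368) and than in knockout cells (-0.60 ± 0.13, adjusted p = 0.000619) at 9 h.

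Srf had 53.9 and 52.1 FPKM at 9 h in combined-loss cells, 13.6 and 15.0 FPKM in P53 knockdown cells and 22.7 and 24.4 FPKM in Lnc956 knockout cells, and its level was thus not ordered like that of Acta2 or Tagln. From 0 h to 9 h Srf fell by 0.68 ± 0.25 in the knockout (adjusted p = 0.0251) and by 0.97 ± 0.25 in P53 knockdown cells (adjusted p = 0.0027), whose 0 h replicates differed. In combined-loss cells the Srf difference was 0.16 ± 0.25 (adjusted p = 0.812). Among 9 tested genes of SRF, its cofactors and early targets, 1 rose and 0 fell in combined-loss cells, 1 rose and 3 fell in P53 knockdown cells, and 2 rose and 2 fell in knockout cells. Among 8 tested smooth-muscle contractile genes, 0 rose and 0 fell in combined-loss cells, 6 rose and 1 fell in P53 knockdown cells (median log2 difference 1.14), and 5 rose and 1 fell in knockout cells (median 0.48). The most abundant of that list was Ppp1r14a, an inhibitor of myosin phosphatase.

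Across the 12 group means of the mutant lines, some of the 10 genes moved together and others did not. Pearson's r of log2(FPKM + 1) was 0.95 between Tagln and Acta2, 0.87 between Tagln and Tpm2 and 0.78 between Tagln and Cnn1. It was 0.93 between Actg1 and Vcl and 0.73 between Actb and Actg1, but -0.20 between Tagln and Actg1 and -0.40 between Acta2 and Actg1. Other genes were less clear: Tpm1 had 0.45 with Tagln and 0.49 with Actg1, and Cnn2 had 0.19 and 0.33. Actb had 0.31 with Tagln, and Myl9 had 0.73 with Tagln and 0.01 with Actg1. These r values are descriptions over groups that share lines and times, and none was computed for genes outside the 10 over these means. Over all 14 group means, and among 8411 genes that reached 10 FPKM in a group, genes like Tagln in pattern included Bgn, Ankrd1, Timp3 and Mical2, with r between 0.987 and 0.989. Most like Actb were Tbc1d1 (r = 0.972), Rhoa (r = 0.965), Rad23b, Dym and Ap2b1, and most like Vcl were Ywhaq (r = 0.976), Fyn (r = 0.974), Rhoa, Cap1 and Adam19. For each of these genes the lowest group was a WT group, and the gap to WT cells is the contrast that chose the 10 genes. With the WT groups r was 0.81 between Tagln and Actg1, against -0.20 without them. The r values over 14 group means thus include that gap, and nothing is read from their height.

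KLF4 and P53 sites near the 10 genes were read from the deposited peak lists, where a site is a peak seen in both libraries of a group, within 10 kb of the gene body. KLF4 sites stood near 6 of the 10 genes in deletion-rescue cells with etoposide and 8 untreated, near 6 and 9 in full-length-rescue cells, near 5 and 7 in Lnc956 knockout cells, and near 4 and 9 in WT cells. The share of all 13490 genes with a site was 77.0% with etoposide and 80.5% untreated in deletion-rescue cells, 62.9% and 80.1% in full-length-rescue cells, 74.0% and 77.3% in knockout cells, and 37.6% and 84.4% in WT cells. In etoposide-treated WT cells the 4 genes were Actb, Actg1, Cnn2 and Vcl, and these also had a site in every other KLF4 group. Acta2 had none in any of the 8 groups. Sites over the whole genome numbered 5257 in etoposide-treated and 23086 in untreated WT cells, against 19623 and 20748 in knockout cells.

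At Vcl the site of highest fold lay over the promoter window, printed above, in each KLF4 group. Its fold enrichment over control, as the authors' peak caller gave it, was 36.9 and 38.2 with etoposide and 26.5 and 27.8 untreated in deletion-rescue cells, and 22.6 and 21.3 with etoposide and 45.9 and 47.4 untreated in full-length-rescue cells. It was 18.4 and 19.3 with etoposide and 32.5 and 24.1 untreated in knockout cells, and 16.3 and 16.0 with etoposide and 46.2 and 41.7 untreated in WT cells. At Actb it was 44.4 and 43.3 with etoposide and 62.3 and 62.3 untreated in knockout cells, and 30.3 and 29.8 with etoposide and 59.1 and 58.2 untreated in WT cells. Folds are comparable only within a list, so no difference between groups is drawn from them. At Cnn2 in etoposide-treated WT cells the site lay outside the gene, 2496 bp from its body, with a fold of 23.9 and 22.7. At Actg1 in the same cells the highest site lay 1595 bp away with a fold of 9.31 and 7.62, and another, of 7.95 and 7.47, covered the promoter window.

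Among the 10 genes, P53 sites were listed with etoposide and not without it. Nothing is read from these counts, since untreated sites were rare over all genes. They stood near Actg1 and Vcl in etoposide-treated knockdown cells, where 22.2% of all genes had one, and near 0 of the 10 in untreated knockdown cells, where 1.39% did. In WT cells they stood near Actg1, Cnn2 and Vcl with etoposide, where 25.5% of all genes had one, and near 0 untreated, where 1.9% did. At Vcl the site lay at chr14:20929062-20929350 in knockdown cells, with a fold of 6.26 and 5.99, and at chr14:20929052-20929461 in WT cells, with a fold of 6.08 and 5.52, and both covered the CArG box of the printed promoter. At Actg1 the WT site (chr11:120349782-120350602; fold 6.06 and 6.00) lay 1287 bp from the gene body, outside the printed window, and the knockdown site had a fold of 7.12 and 6.39. At Cnn2 the WT site lay at chr10:79984783-79985254, 3346 bp from the gene body. None of the 10 had a P53 site of both libraries in untreated cells. This says only that no peak of the P53 (S15) antibody passed the authors' threshold there.

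**Figure D4:**
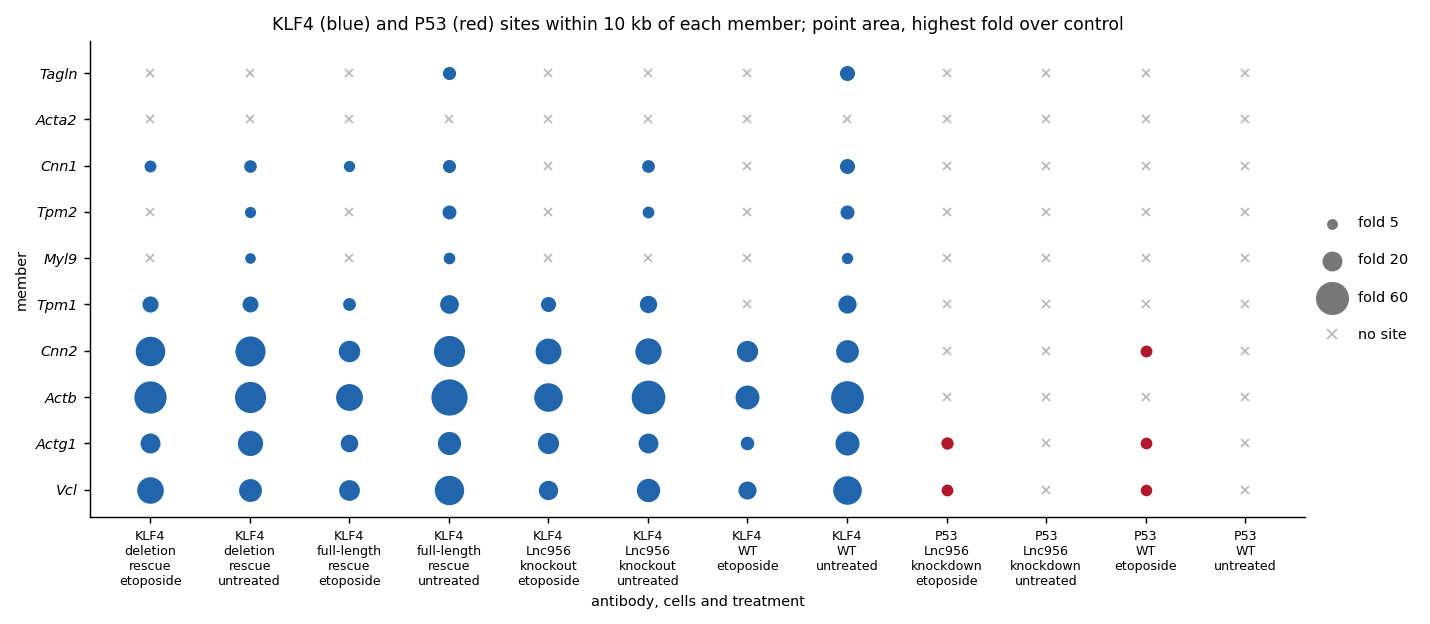
Sites of KLF4 (blue) and P53 (red) within 10 kb of each of the 10 genes, by antibody, cells and treatment; the area of a point is the highest fold over control and a cross marks no site in both libraries. Actb, Actg1, Cnn2 and Vcl have a KLF4 site in all 8 KLF4 groups, Acta2 has none, and P53 sites stand near Actg1, Vcl and Cnn2 only with etoposide.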

How the data were processed

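RNA-seq libraries (36) and ChIP-seq peak lists (24) were read as the authors deposited them. Reads were handled with CASAVA 2.19, TopHat2 2.0.8, Cufflinks and Cuffdiff 2.1.1, Bowtie2 2.1.0 and MACS2 2.2.7.1 on build mm10, per the submitters' processing notes, which give no role or order. The deposited expression values are FPKM, with no counts, so depth is unknown and the replicate number limits the precision. The deposited peak lists give each peak's fold enrichment ratio over control and its −log10 p and −log10 q, as the authors' peak caller wrote them per library.

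Columns were matched to samples by name. The combined-loss columns were matched by elimination of the other lines' names, and 4 time-course columns that match no label, headed WT at 0 h and 3 h, were not analysed here. In the first set 140 symbols on several differing lines were left out.

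Values were taken as log2(FPKM + 1), and genes with 1 FPKM or more in at least 2 libraries were tested: 12733 in the first set and 14223 in the time course. The groups of a set were fitted together with limma 3.58.1 in R 4.3.3 (variance trend, Benjamini-Hochberg adjustment, threshold 0.05); the fit was tested on simulated data. Sites were peaks of replicate 1 that overlap a peak of replicate 2 by 1 bp or more within 10 kb of a RefSeq gene body. Promoter windows came from RefSeq, GRCm38.p6; for Myl9 and Vcl only the stretch before the gene body is printed. Python 3.11.15 with pandas 2.3.3, numpy 2.4.6 and matplotlib 3.10.9 was used. Alternatives were quantile scaling, a common median, a pseudocount of 0.1, a filter of 5 FPKM or none, a replicate block, a fit of only the compared groups, no variance trend, no libraries labelled 10 uM, and the omission of each library.

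The 10 genes and the gene lists were chosen with earlier results of these data known. Named genes are these 10, up to 4 genes of highest mean FPKM of each other list, Trp53 and Y-linked genes as library checks, and the 5 genes of highest Pearson's r to Tagln, Actb and Vcl, of which 1 is not reported here; Myh11, Lmod1 and Pln were added after values were seen.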

Additional observations from a re-analysis of the deposited data

Results flagged for a closer look

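The following 20 differences between the responses of 2 cell lines passed the test of the difference itself. In the first set, the etoposide response of Lnc956 knockdown cells minus that of WT cells was 0.20 for Actb, 0.27 for Actg1, 0.63 for Cnn2 and 0.22 for Myl9 on the log2 scale. In the time course, the response from 0 h to 9 h in combined-loss cells minus that in Lnc956 knockout cells was 0.84 for Actb, 1.42 for Actg1 and 0.78 for Vcl. In combined-loss cells minus P53 knockdown cells it was 0.54 for Actb, 0.60 for Actg1, -0.97 for Tagln, -1.73 for Acta2, -1.70 for Cnn1 and -0.84 for Tpm2. In P53 knockdown cells minus Lnc956 knockout cells it was 0.82 for Actg1, 0.93 for Tagln, 1.12 for Acta2, 1.57 for Cnn1, 0.71 for Tpm1, 0.99 for Tpm2 and 0.61 for Vcl. Quantile scaling ended the calls of Actg1, Tagln, Tpm1 and Vcl in this last pair, with the highest adjusted p of 0.178, 0.0519, 0.473 and 0.0825 in limma. The Y-linked and fibroblast sums differed between 0 h and 9 h in P53 knockdown and Lnc956 knockout cells. In the first set the Y-linked sums were 36.7 to 44.8 FPKM with etoposide and 3.79 to 4.36 FPKM untreated, and the fibroblast sums 260.4 to 285 FPKM with etoposide and 1025 to 1064 FPKM untreated. The part of both was not tested.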

How the results depend on the processing

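Of 91 calls, 53 held in every alternative, and of 151 recomputed counts 130 stayed within 1.5 times. The 91 leave out the calls from 6 h to 9 h in the mutant lines, which were not recomputed. Between untreated knockdown and WT cells 2 genes passed, against 1 with a pseudocount of 0.1 FPKM, 0 without a filter, 0 without a variance trend and 0 to 1 without 1 library. The difference of etoposide responses gave 4, against 2 without a filter, 2 with the replicate block, 2 without a variance trend and 2 to 4 without 1 library. WT cells at 9 h against 6 h gave 3, against 1 to 2 without 1 library. Combined-loss against P53 knockdown cells gave 22, against 13 with only the compared groups and 18 to 26 without 1 library. From 0 h to 9 h 12 passed, against 0 from 0 h to 3 h and 5 from 6 h to 9 h, steps chosen after seeing the data. The sign turned with quantile scaling for 3 values that were called in the main fit or in the alternative. Between combined-loss and P53 knockdown cells these were Actb at 0 h (-0.29) and Actg1 at 3 h (-0.11). The other was Actb in the response of P53 knockdown minus knockout cells (-0.47). A further 84 of 2467 recomputed values changed sign with no call in either fit. The cause was not tested. Replicate numbers did not pair the samples in the first set, where the correlations of deviations ran from -0.16 to 0.089 over 6 pairs of groups. In the time course they ran from -0.55 to 0.51 over 91 pairs, with a median of -0.00066 and 18 over 0.1. Pairing of some groups there is thus not excluded. No step could show how depth limits the values, since no counts were used.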
